A study of Mus musculus with 16 samples.

Results

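Among the 12 bleomycin-exposed mouse lungs of a series of 16 RNA-seq libraries, the 6 libraries with the most fibrillar collagen transcript were set against the 6 with the least. The members were chosen by measured values: each library was scored by the mean of the deposited log2(TPM + 1) values of Col1a1, Col1a2 and Col3a1, where TPM is a length-corrected share of a library's transcripts. The ranking asks which other genes follow fibrillar collagen among lungs that were all given bleomycin. Since the score is itself a readout of these libraries, the differences between high- and low-collagen libraries below are descriptions without a test, and the 3 ranking genes are left out of every count.

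The 16 libraries were whole-lung total RNA from 4 groups of 4: control lungs with no treatment named, bleomycin, bleomycin with Ad-GFP, and bleomycin with Ad-ATP12A. All 12 ranked lungs thus share bleomycin. Ad-GFP is an adenoviral vector carrying green fluorescent protein, and Ad-ATP12A one carrying ATP12A, the catalytic alpha subunit of a non-gastric proton pump. Each group had 2 libraries in batch 1 and 2 in batch 2, and libraries are written here by group, batch and replicate number, so that "bleomycin b1r2" is replicate 2 of batch 1. The labels name no strain, sex, age, bleomycin dose, route or day, no promoter or titre of the vectors, and do not say whether replicates are separate animals, so p-values measure only the spread between these libraries. What a batch stands for is not given either.

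Bleomycin is a DNA-breaking drug that injures the alveolar epithelium. In the repair that follows, fibroblasts and myofibroblasts secrete type I and type III collagen, encoded by Col1a1, Col1a2 and Col3a1. Procollagen chains are hydroxylated and folded in the endoplasmic reticulum, trimmed outside the cell, assembled on fibronectin and collagen V, and crosslinked by lysyl oxidases. Macrophages recruited from blood monocytes supply growth factors to the fibroblasts and also take up and digest collagen.

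Collagen spread widely within the injured lungs. In the 6 high-collagen libraries Col1a1 was at 742 ± 228 TPM, Col1a2 at 794 ± 226 TPM and Col3a1 at 943 ± 160 TPM (mean ± SD, n = 6). The 6 low-collagen libraries held 252 ± 129, 306 ± 110 and 542 ± 98.1 TPM of the same genes. The 4 control lungs lay below all of them, with Col1a1 between 30.3 and 50.3 TPM and scores between 5.67 and 6.38. Ad-ATP12A b2r1 had the highest score, 10.26, and was followed by Ad-GFP b2r2 (9.72), Ad-ATP12A b2r2 (9.57), bleomycin b1r1 (9.49), bleomycin b2r2 (9.45) and Ad-GFP b1r2 (9.42). The low-collagen libraries were bleomycin b1r2 (9.10), bleomycin b2r1 (8.45), Ad-GFP b2r1 (8.38), Ad-ATP12A b1r1 (8.26), Ad-ATP12A b1r2 (8.24) and Ad-GFP b1r1 (7.78). The border thus ran between Ad-GFP b1r2 and bleomycin b1r2, at 9.42 and 9.10. Col1a1 alone, or the summed TPM of the 3 genes, put the same 6 libraries on each side.

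Treatment labels were balanced across the ranking, while batch and Xist were not. Each side held 2 bleomycin, 2 Ad-GFP and 2 Ad-ATP12A libraries. The Ad-ATP12A libraries, however, were split by batch and by level of Atp12a. Both of batch 2 were high-collagen, with Atp12a at 29.0 and 25.7 TPM. Both of batch 1 were low-collagen, with Atp12a at 5.13 and 2.96 TPM. The score was 9.12 ± 0.479 in bleomycin, 8.83 ± 0.903 in Ad-GFP and 9.08 ± 1.00 in Ad-ATP12A lungs (SD, n = 4 each), differences smaller than the spread in any of these groups. Of the high-collagen libraries 4 came from batch 2, and of the low-collagen ones 2; the exposed lungs averaged 8.72 ± 0.713 in batch 1 and 9.31 ± 0.742 in batch 2 (SD, n = 6 each). Xist, the RNA that coats the inactive X chromosome, was at 10 TPM or more in 1 high-collagen and 4 low-collagen libraries, and the Y-linked Ddx3y was near 0 in those same libraries. The 5 libraries with Xist scored 7.78 to 9.57 (mean 8.46) and the other 7 scored 8.38 to 10.26 (mean 9.40). Because of this imbalance, values inside each batch are given for some genes and lists. Values by Xist are given for some lists, for the collagen-following genes as a set and for a few genes. Read depth is unknown, since TPM keeps no counts. Mitochondrial transcripts made up 5.31% to 9.81% of the high-collagen and 7.50% to 11.48% of the low-collagen libraries, and the 10 most abundant genes 11.98% to 16.8% against 17.9% to 21.0%, without overlap. The club cell transcript Scgb1a1 was below 1000 TPM in 1 library on each side: high-collagen bleomycin b2r2 (127.72 TPM) and low-collagen Ad-GFP b1r1 (295.36 TPM). The part of batch, Atp12a level, Xist, mitochondrial share and Scgb1a1 in the differences below was not tested.

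The BMP antagonist Grem1, the matrix genes Lox, Thbs2 and Fn1 and the macrophage gene Msr1 were higher in every high-collagen lung than in any low-collagen one, and Cbr2, Cyp2f2 and Tppp3 were lower. Of 17000 genes at 1 TPM or more in at least 4 libraries, 463 (2.72%) were higher in every high-collagen library than in any low-collagen one, and 219 (1.29%) were lower in every one. A difference of at least 1 on the log2 scale, with ranges that did not overlap, was met by 87 genes higher (0.512%) and 15 lower (0.0882%). These 2 sets are called the collagen-following and the collagen-opposing genes. Over all genes the median difference was 0.04, and 9441 of 17000 were above 0. Lists of collagens, collagen processing, proteoglycans, elastic fibres, matricellular proteins and proteases held 135 different genes at this level, of which 18 were collagen-following and 112 had a difference above 0 (median 0.70). Lists of monocytes with interstitial macrophages, scar macrophages, alveolar macrophages and alternative activation held 56, of which 8 were collagen-following and 46 were above 0 (median 0.61). The collagen-following Fn1 and Mmp14 are in both the matrix and the scar macrophage lists and are counted in each. Of the 87 collagen-following genes 31 were in any of the 54 gene lists. The counts depended on libraries near the border and at the ends of the ranking: they were 175 and 58 without bleomycin b1r2 and 150 and 33 without Ad-GFP b1r2. The collagen-opposing count alone was 37, 26 and 24 without bleomycin b2r2, Ad-GFP b2r1 and bleomycin b1r1, and 7 without Ad-GFP b1r1 or Ad-ATP12A b2r1.

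The BMP antagonist Grem1, or gremlin 1, which binds bone morphogenetic proteins outside the cell, had the largest difference of the collagen-following genes. In the high-collagen libraries Grem1 was at 14.5 TPM in the lowest, 31.9 in the median and 65.8 in the highest library, and in the low-collagen ones at 2.38, 4.73 and 14.1 TPM. The 4 controls held 0.39, 0.30, 0.74 and 0.25 TPM. The ranges of Grem1 came close but did not overlap, and the difference in mean log2(TPM + 1) was 2.45, with an SD of 0.83 and 0.81 within the high and low libraries. It was 2.02 and 2.85 when the libraries were ranked inside batch 1 and batch 2, and Grem1 was higher in the higher-scoring library of all 6 pairs that share treatment and batch. For any gene without overlap, the direction is fixed in both Ad-GFP pairs and in both bleomycin pairs, so only the Ad-ATP12A pairs are free. Spearman's rho of Grem1 with the score was 0.94 over the 12 libraries and 0.90 without the highest and lowest library; all such correlations here share these 12 libraries. Follistatin (Fst), which binds activins and BMPs, differed by 2.21 but overlapped, since 1 low-collagen library reached 40.4 TPM against a lowest high-collagen value of 29.8 TPM. Of 21 BMP and Wnt modulators 5 were without overlap on the high side and 14 were above 0 (median 0.41). Besides Grem1 these were the BMP-binding Bmper (1.34), the Wnt-induced Ccn4 (1.31), the follistatin-like Fstl1 (1.17) and the secreted Wnt antagonist Frzb (1.11). Bmp4 itself (-0.44) and Wnt2 (-0.13) did not follow.

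Lysyl oxidases, the copper enzymes that begin collagen and elastin crosslinks, followed the score closely. Lox was at 132, 188 and 264 TPM (lowest, median, highest) in the high-collagen libraries and at 24.1, 48.9 and 102 TPM in the low-collagen ones. Controls held 15.5, 21.4, 18.9 and 14.8 TPM. Every high-collagen library was thus above every low-collagen one, and the low-collagen ones above every control. The Lox difference was 1.89, or 1.80 in batch 1 and 1.74 in batch 2, with rho 0.99. Loxl2 ran from 47.9 to 123 TPM (median 69.9) against 17.0 to 39.4 TPM (median 27.1), a difference of 1.37 with rho 0.99 and the same direction in 6 of 6 pairs. Loxl4 was lower in level, 4.53 to 12.8 TPM against 1.46 to 4.25 TPM, and also had rho 0.99. Loxl3 (0.96) and Loxl1 (0.72) overlapped. The procollagen C-proteinase Bmp1 was the other member of the 13 processing and crosslinking genes without overlap (0.51), and 12 of the 13 were above 0 (median 0.70). Only Pcolce2, an enhancer of that proteinase, was below 0 in this list, at -0.68.

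The collagens that join type I fibrils went with the ranking genes. Collagen V, which sets fibril diameter, was the clearest: Col5a2 was at 118 to 269 TPM (median 186) against 33.6 to 92.1 TPM (median 61.0), a difference of 1.59. Col5a1 was at 123 to 250 TPM (median 153) against 34.1 to 118 TPM (median 51.9), a difference of 1.53. Col5a3 differed by 1.62 and Col11a1 by 1.29 with overlapping ranges, and Col27a1 by -0.05. Of the 7 other fibrillar collagens 6 were above 0 (median 1.29, and 1.30 and 1.11 inside the batches), and 6 of the 7 also rose in exposed against control lungs. Fibril-associated Col12a1 (1.09) and the beaded-filament chain Col6a3 (0.95) did not overlap either, while Col20a1, at 2.20 TPM or less, was lower in all high-collagen libraries (-0.59). Basement membrane collagens were more mixed: Col4a1 differed by 0.77 and Col4a2 by 0.86, Col4a3 by 0.24, Col4a4 by -0.01 and Col4a5 by -0.06, and none of the 11 network collagens was without overlap. The 3 transmembrane collagens, which are also counted among the matrix genes, had a median of -0.39, with Col13a1 at -0.43, Col17a1 at -0.39 and Col23a1 at 0.77.

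Genes that fold collagen inside the cell leaned toward the high-collagen lungs. The median over 19 hydroxylation, folding and secretion genes was 0.38, with 18 above 0 and 3 without overlap: the prolyl isomerase Ppib (0.18), P3h3 (0.46) and the secretory transcription factor Creb3l1 (0.49). P4ha3, a prolyl 4-hydroxylase subunit, had the largest difference (1.41, 14.4 to 27.2 TPM against 5.33 to 16.3 TPM), whereas the widely expressed P4ha1 hardly differed (0.03). The collagen chaperone Serpinh1 differed by 0.27 and overlapped, at 281 to 432 TPM against 264 to 447 TPM. It nevertheless rose in exposed against control lungs by 1.16 (SE 0.136, limma adjusted p = 7.73e-05). Over 21 genes of endoplasmic reticulum load the median was 0.10, although Kdelr3, a retrieval receptor (0.83), and Ssr3 (0.40), Calr (0.29) and Dnajb11 (0.19) were without overlap.

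Fibronectin and other adhesive proteins of the provisional matrix were among the most abundant followers. Fn1 was at 747, 1228 and 1412 TPM (lowest, median, highest) in the high-collagen libraries, at 173, 359.5 and 684 TPM in the low-collagen ones, and at 100, 108, 135 and 94.97 TPM in the controls. The 3 sets did not overlap. The Fn1 difference was 1.70, with 1.74 inside batch 1 and 1.08 inside batch 2. Its integrin receptor subunit Itga5 had a difference of 0.95 and rho 0.99. Tenascin C (Tnc) had rho 0.99 and a difference of 1.57, but overlapped by a small margin, 92.8 TPM in the lowest high-collagen against 94.5 TPM in the highest low-collagen library. Cthrc1 (1.76) and osteopontin, Spp1 (1.38), overlapped more widely. Periostin (Postn) differed by 0.52. Of 21 matricellular genes 19 were above 0, with a median of 0.88, and Fn1 and Ccn4 were without overlap.

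Among the fibril regulators, Thbs2, a thrombospondin that modulates fibril assembly, ran from 15.4 to 40.7 TPM (median 19.9) in the high-collagen and from 1.51 to 13.6 TPM (median 4.88) in the low-collagen libraries. Controls held 0.82, 0.73, 1.31 and 0.93 TPM. The Thbs2 difference of 1.91 was 1.90 and 1.74 inside the batches and held in 6 of 6 pairs. The small leucine-rich proteoglycans fibromodulin (Fmod, 1.64) and lumican (Lum, 1.23) were without overlap as well, decorin (Dcn, 0.71) and biglycan (Bgn, 0.90) overlapped, and tenascin X (Tnxb) was at -0.82. Fmod did not pass in exposed against control lungs (0.92, limma adjusted p = 0.118). Of elastic fibre genes, elastin (Eln) was at 691 to 1090 TPM against 279 to 599.9 TPM, a difference of 1.20, and Emilin2 (1.45) and Fbn2 (0.75) did not overlap. The fibulins split: Fbln2 differed by 1.35, Fbln5 by 0.18 and Fbln1 by -0.64.

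Proteases and their inhibitors included 8 of 25 genes without overlap on the high side, and 23 were above 0 (median 0.86). Adamts12 was at 6.84, 13.6 and 24.8 TPM against 1.07, 3.24 and 4.99 TPM, and at 1.02, 0.54, 0.79 and 0.31 TPM in the controls, a difference of 1.84 with rho 0.98. The aggrecanase Adamts4 (1.75), the stromelysin Mmp10 (1.82), Adam12 (1.47) and the membrane-bound collagenase Mmp14 (1.06) were the other collagen-following members. The collagen-degrading cathepsin K (Ctsk, 0.89), Mmp3 (0.85) and the fibroblast activation protease Fap (0.51) did not overlap but differed by less than 1. Timp1 differed by 1.72 with wide overlap, because 1 low-collagen library reached 361 TPM. The macrophage elastase Mmp12 showed no order with collagen (rho 0.13), running from 16.8 to 1159 TPM in the high-collagen libraries. Serpina3n, a serine protease inhibitor outside these lists, was at 211 to 587 TPM (median 374) against 59.99 to 189 TPM (median 95.4), a difference of 1.83. The direction held in 4 of 6 pairs, those in which the lack of overlap fixed it. In the Ad-ATP12A pairs Serpina3n was lower in the higher-scoring library. It was at 84.2 against 87.5 TPM in batch 1 and at 447 against 587 TPM in batch 2. Serpina3n belongs to a cluster of near-identical genes, so its share of their reads is uncertain.

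**Figure D1:**
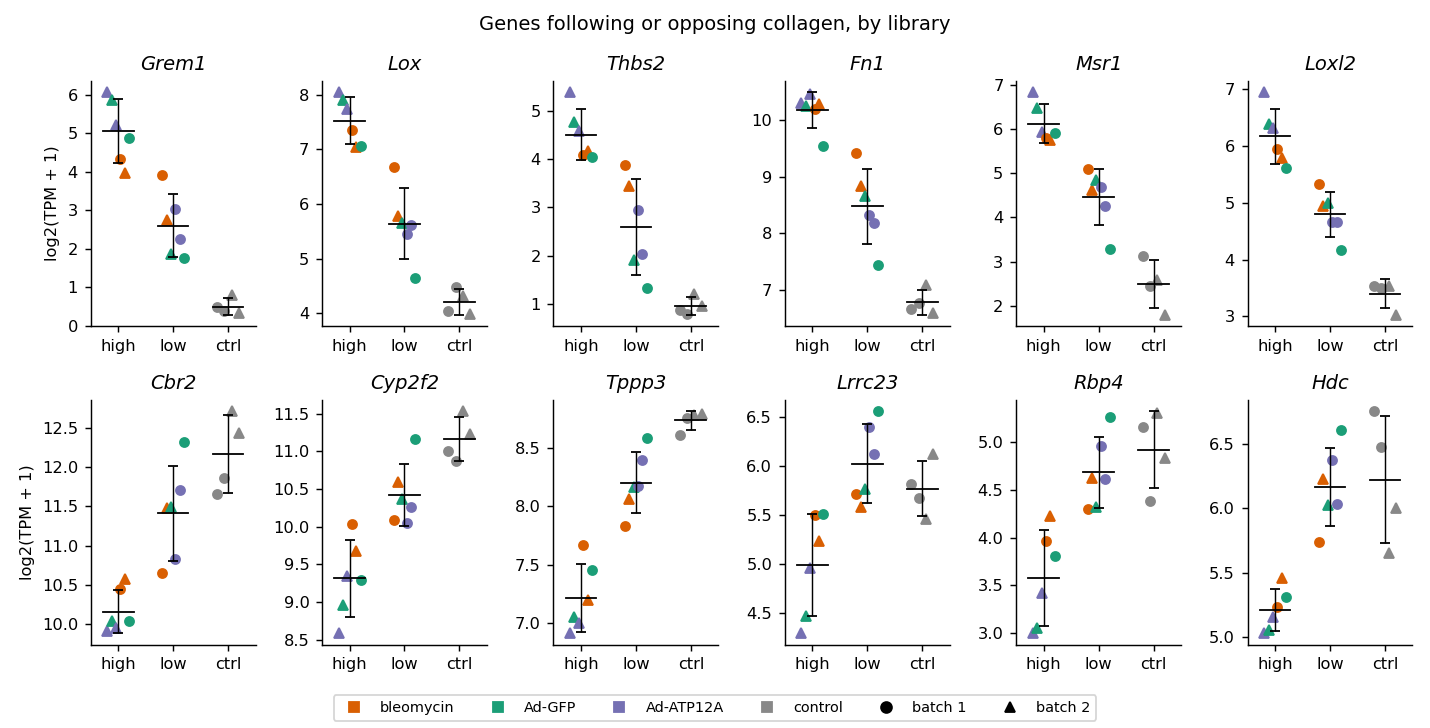
Each point is 1 library's log2(TPM + 1) for a named gene in high-collagen, low-collagen and control (ctrl) lungs, coloured by treatment and shaped by batch, with bars for the mean and SD. Grem1, Lox, Thbs2, Fn1, Msr1 and Loxl2 are higher, and Cbr2, Cyp2f2, Tppp3, Lrrc23, Rbp4 and Hdc lower, in every high-collagen library than in any low-collagen one.

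The start regions of 2 ranking genes and of 4 genes that followed them are shown because these members move together across libraries. Col1a1 and other matrix followers, among them Lox, Adamts4 and Fn1, are not shown, so the windows do not stand for all of them. RefSeq windows on the GRCm38.p6 build give the 150 bases before the transcription start, read 5′ to 3′ on the gene's strand. Capitals mark 3 short motifs searched on both strands. The first is the core of the box bound by the general factor TBP, TATAAA, which reads TTTATA on the other strand. Another is the core bound by the factor NF-Y, CCAAT, which reads ATTGG on the other strand. The last is a core bound by Smad proteins, CAGAC, which reads GTCTG on the other strand.
Col1a2, chr6:4505468-4505617, plus strand: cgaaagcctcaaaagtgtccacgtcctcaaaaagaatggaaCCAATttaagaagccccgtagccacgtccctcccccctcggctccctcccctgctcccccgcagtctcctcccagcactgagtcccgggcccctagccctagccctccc
Col3a1, chr1:45311388-45311537, plus strand: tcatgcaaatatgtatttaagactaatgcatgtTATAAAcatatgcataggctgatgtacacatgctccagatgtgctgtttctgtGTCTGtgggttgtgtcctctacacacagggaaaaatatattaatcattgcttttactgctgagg
Grem1, chr2:113758649-113758798, minus strand: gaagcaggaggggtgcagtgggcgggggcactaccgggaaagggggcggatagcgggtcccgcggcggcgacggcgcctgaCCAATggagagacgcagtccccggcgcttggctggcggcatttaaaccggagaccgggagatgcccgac
Thbs2, chr17:14694263-14694412, minus strand: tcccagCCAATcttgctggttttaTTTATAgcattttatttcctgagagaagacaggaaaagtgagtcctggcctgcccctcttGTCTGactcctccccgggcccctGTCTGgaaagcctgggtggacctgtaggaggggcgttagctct
Adamts12, chr15:11064623-11064772, plus strand: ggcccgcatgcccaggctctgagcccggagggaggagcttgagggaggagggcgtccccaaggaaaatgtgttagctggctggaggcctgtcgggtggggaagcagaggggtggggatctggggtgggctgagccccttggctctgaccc
Loxl4, chr19:42612807-42612956, minus strand: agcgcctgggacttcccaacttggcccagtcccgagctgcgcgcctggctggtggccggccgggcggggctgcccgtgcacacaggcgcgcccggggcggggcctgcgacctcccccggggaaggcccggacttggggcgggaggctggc
Of 32851 such windows of all genes, 7.57% held the TBP core on either strand, 24.5% the NF-Y core and 27.7% the Smad core. The NF-Y core was found in the windows of Col1a2, Grem1 and Thbs2, and both others in those of Col3a1 and Thbs2. In Adamts12 and Loxl4 none of the 3 was found. The 6 windows thus share no one of these motifs, and a match describes letters, not binding.

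Fibroblast genes followed collagen selectively. Among 26 genes of activated and adventitial fibroblasts 21 were above 0 (median 0.46) and 3 were without overlap: Lrrc15, a marker of collagen-rich myofibroblasts (1.41), the mesenchymal transcription factor Prrx1 (1.00, rho 0.98) and Cilp (0.95). The growth factor Pdgfc differed by 1.42, with 8.03 TPM in the lowest high-collagen against 8.10 TPM in the highest low-collagen library. Cd248, or endosialin, a glycoprotein of activated stromal cells, was at 21.3 to 42.3 TPM (median 28.8) against 5.09 to 17.4 TPM (median 8.22) and 4.68 to 7.32 TPM in controls, a difference of 1.66 in 6 of 6 pairs. Of 14 myofibroblast and contractile genes, smooth muscle actin (Acta2) was at 205 to 382 TPM against 105 to 181 TPM, a difference of 1.04. The low-collagen libraries lay around the control range of 114 to 153 TPM, and Acta2 did not pass in exposed against control lungs (0.50, limma adjusted p = 0.245). Desmin (Des, 0.56) and Tpm1 (0.34) were also without overlap, while the smooth muscle genes Cnn1 (-0.12), Mylk (0.03) and Myh11 (0.19) hardly differed. Alveolar fibroblast genes went the other way in part: 11 of 15 were below 0 (median -0.21), with Slc7a10 at -1.59, Inmt at -0.94 and Tcf21 at -0.74, all overlapping. In whole-lung RNA, fewer cells of a type and less RNA per cell cannot be told apart.

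TGF-beta ligands and receptors overlapped between high- and low-collagen lungs, while a target named after the factor did not. Tgfb1 was at 87.5 to 111 TPM in the high-collagen and 57.3 to 91.1 TPM in the low-collagen libraries, a difference of 0.44. Tgfb3 differed by 0.40, Tgfb2 by 0.17, Tgfbr1 by 0.61 and Tgfbr2 by 0.76, all with overlap. Tgfbi, a matrix protein named for its induction by TGF-beta, was at 179 to 273 TPM against 70.9 to 169 TPM (1.06, no overlap). Connective tissue growth factor Ccn2 (1.04) and the activin subunit Inhba (1.38) overlapped. Lrrc32, which tethers latent TGF-beta to the cell surface, did not overlap (0.64). Of these 25 genes 24 were above 0 (median 0.44), and the exception was the decoy receptor Bambi (-0.58).

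Macrophage genes formed the second large set of followers, in part shared with the matrix lists. The scavenger receptor Msr1 was at 52.99, 59.6 and 113 TPM in the high-collagen libraries, at 8.83, 24.3 and 33.0 TPM in the low-collagen ones, and at 7.68, 4.45, 5.03 and 2.47 TPM in controls, so that the 3 sets did not overlap. Its difference was 1.65, with 1.52 and 1.34 inside the batches. All 16 monocyte and interstitial macrophage genes were above 0 (median 1.04; 0.63 in batch 1 and 1.11 in batch 2), and their summed level was 2260 to 6113 TPM against 1248 to 1952 TPM. The complement C1q chains C1qa (1.13), C1qb (1.26) and C1qc (1.28), the folate receptor Folr2 (1.19) and the transglutaminase F13a1 (1.45) were without overlap. F13a1 was at 7.67 to 11.1 TPM in the low-collagen libraries, below the control range of 12.7 to 19.0 TPM, and at 17.2 to 94.1 TPM in the high-collagen ones. Of 18 genes of lipid-handling scar macrophages 15 were above 0 (median 0.85), among them Apoe (2547 to 10417 TPM against 1249 to 2247 TPM, difference 1.25), Trem2 (0.86) and Ctsb (0.84) without overlap. The other members without overlap were Fn1, Mmp14 and Ctsk, which are described above with the matrix genes. Arginase 1 (Arg1) had the widest gap, 2.55, with overlap and an uneven size, 1.17 in batch 1 and 4.05 in batch 2. For alveolar macrophage genes the median was 0.34 and none of 14 was without overlap; the sign turned in batch 2 (-0.17, against 0.47 in batch 1), in the pairs (-0.35) and under 10 TPM Xist (-0.09). The alternative activation gene Retnla rose strongly in exposed against control lungs (4.18, SE 0.484, limma adjusted p = 7.26e-05) but differed by 0.20 between high- and low-collagen lungs.

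Chemokines that attract monocytes leaned the same way without separating the libraries. Ccl2 differed by 1.95, Ccl7 by 1.36 and Ccl12 by 1.36, each higher in the higher-scoring library of 6 of 6 pairs, with overlapping ranges. Of 26 cytokines and chemokines 24 were above 0 (median 0.49), and Ccl24 alone was without overlap. Ccl24 was low in level, 0.86 to 4.51 TPM against 0.36 to 0.81 TPM, and differed by 0.70 inside batch 1 and -0.15 inside batch 2. Il6 (0.24) and Il1b (0.29) differed little, and the epithelial alarmin Il33 was lower (-1.07). Interferon genes had no common order: the type I list had a median of 0.02, with -0.41 in batch 1 and 0.28 in batch 2, and the interferon gamma list 0.22, with -0.63 and 0.91. Neutrophil genes had a median of 0.41 with none of 11 without overlap, and T and natural killer cell genes 0.04.

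**Figure D2:**
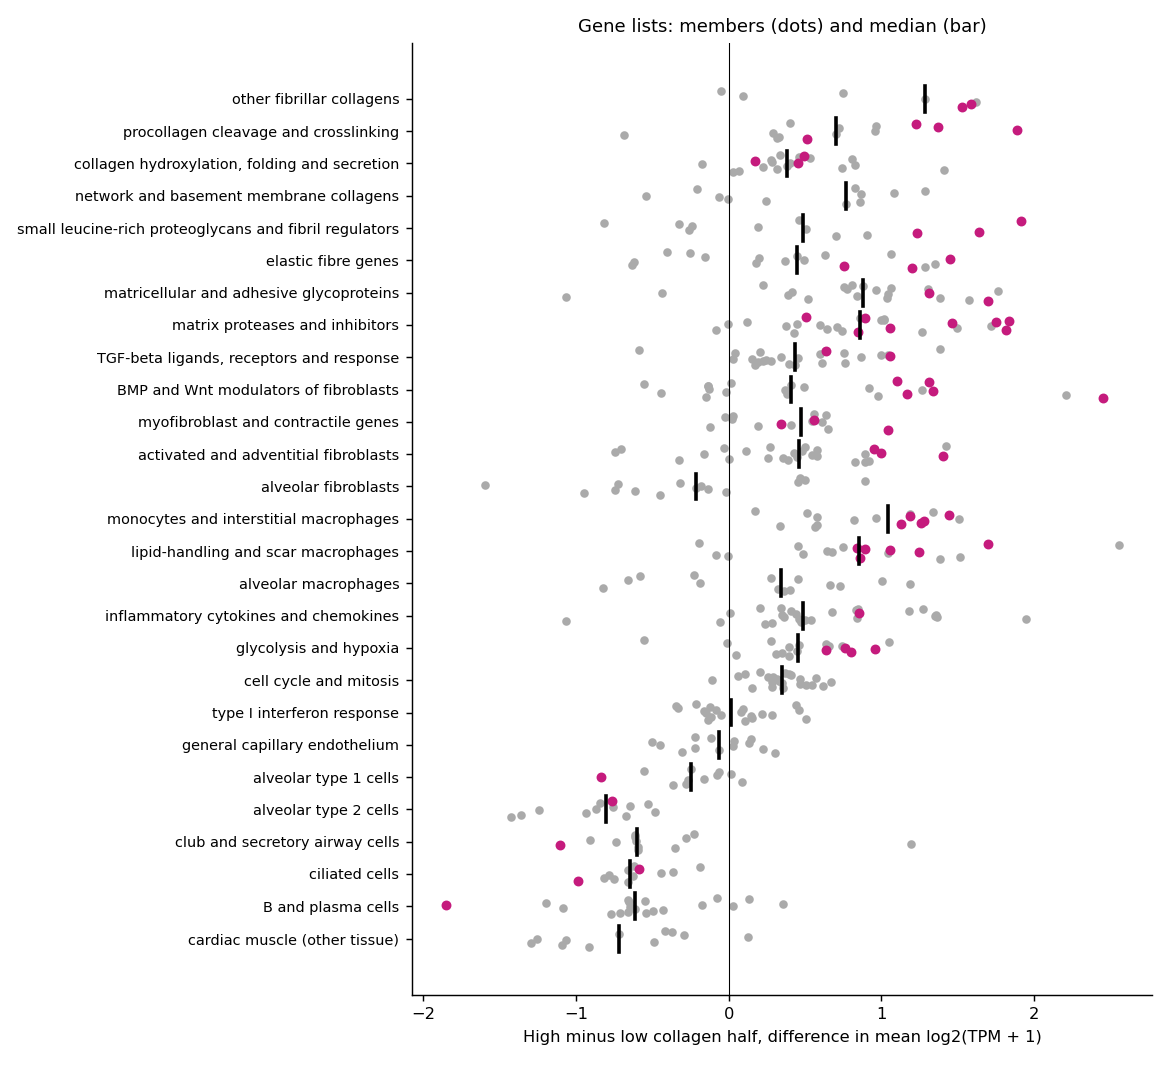
Dots are genes of each list at their difference in mean log2(TPM + 1) between the 6 high- and 6 low-collagen libraries, with coloured dots for genes whose ranges do not overlap and a bar for the list's median. The matrix and macrophage lists drawn lie to the right, from 0.38 to 1.29 in median except alveolar macrophages at 0.34, and alveolar type 2, club, ciliated, B cell and cardiac lists lie to the left, from -0.60 to -0.80.

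Several genes kept the order of the score almost library by library at modest size. Abcc1, an export pump for glutathione conjugates, and Zwint, a kinetochore protein, had rho 1.00 with differences of 0.43 and 0.30. Abcc1 was at 14.3 to 17.7 TPM against 10.2 to 13.8 TPM, and its high-collagen values exceeded the control range of 10.4 to 13.9 TPM while the low-collagen ones did not. Fcna, a ficolin of macrophages (difference 1.60), Adam12, Loxl2, Loxl4, Itga5, the endosomal adaptor Rab11fip5 (0.83), the ribosome-binding Lrrc59 (0.63) and Lox followed at rho 0.99. The TNF-family ligand Tnfsf18 (2.02), the adhesion molecule Chl1 (1.94) and Cd109, a membrane protein that binds TGF-beta (1.84), were among the largest differences with rho of 0.85, 0.92 and 0.97. Chl1 went from 0.12 to 0.24 TPM in controls to 0.99 to 8.86 TPM in low-collagen and 9.51 to 17.9 TPM in high-collagen lungs.

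Of the 15 collagen-opposing genes 2 were in any gene list, the club cell gene Cyp2f2 and the antibody gene Igha. Cbr2, a carbonyl reductase abundant in mouse lung, was at 962, 1052 and 1523 TPM in the high-collagen libraries, at 1614, 2863 and 5120 TPM in the low-collagen ones, and at 3220, 3714, 6746 and 5562 TPM in the controls. The difference was -1.25, and -1.24 and -1.21 inside the batches. The club cell cytochrome Cyp2f2 was at 384 to 1048 TPM (median 636) against 1060 to 2299 TPM (median 1273), a difference of -1.11. Both genes fell in exposed against control lungs too, by 1.38 and 1.29 on the log2 scale (limma adjusted p = 0.0255 and 0.0147). Ciliated cell genes were all below 0, 12 of 12 with a median of -0.64, and their summed level was 1141 to 1662 TPM against 1742 to 2456 TPM, without overlap. Tppp3, a tubulin-binding protein of cilia, was at 119 to 203 TPM (median 138) against 226 to 382 TPM (median 287) and 390, 432, 441 and 441 TPM in controls, a difference of -0.99 with rho -0.97. Lrrc23 (-1.03), Nme9 (-1.02) and Ttc29 (-1.09), 3 axoneme genes outside the list, were lower as well. The retinol carrier Rbp4 (-1.10), the G-protein regulator Rgs11 (-1.07), the glutathione transferase Gsta2 (-1.01), the kallikrein Klk13 (-0.98), the histamine-forming enzyme Hdc (-0.96) and Mettl7a1 (-0.92), which are in none of the epithelial lists, were the other named genes lower in the high-collagen lungs.

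The alveolar type 2 genes, which make surfactant, were all below 0, 12 of 12 with a median of -0.80 (-0.74 in batch 1 and -1.09 in batch 2). Surfactant protein C (Sftpc) was at 3965 to 15456 TPM (median 8456) against 12924 to 29397 TPM (median 23107), a difference of -1.42 with overlap and rho -0.94. The lineage factor Nkx2-1 was the member without overlap, at 44.8 to 79.5 TPM against 82.1 to 131 TPM (-0.76, rho -0.98). Sftpc did not pass in exposed against control lungs (-0.65, limma adjusted p = 0.33), where 1 of the 12 fell. Alveolar type 1 genes differed less (median -0.24), with Rtkn2 without overlap at -0.84. The transitional epithelial list had a median of 0.35 with none of 15 without overlap, although 13 of 15 rose in exposed against control lungs. For club cells the median was -0.60, with 11 of 12 below 0 (-0.83 in batch 1 and -0.08 in batch 2); among the 7 libraries with Xist under 10 TPM it was 0.04. Beside these lists the markers of other tissues had these values: cardiac muscle genes, which mouse lungs carry in the walls of pulmonary veins, had a median of -0.72 in 11 genes with a summed level of 84.6 to 243 TPM against 100 to 770.0 TPM, and large-airway cartilage genes 33.8 to 57.3 TPM against 60.01 to 115 TPM, with Matn4 without overlap (-0.76). Adipocyte genes had a median of -0.51 with 6 of 7 below 0 (-0.53 and -0.89 inside the batches), at 19.1 to 67.2 TPM against 21.0 to 103 TPM in sum. Skeletal muscle genes had a median of -0.17 in 5 genes, and those of thymus and lymph node stroma 0.19 in 3. No gene of these other-tissue lists was at 0 in all 12 libraries. B and plasma cell genes had a median of -0.61 (-1.20 in batch 1 and -0.07 in batch 2), led by the antibody constant gene Igha (-1.85). Their median was -0.04 among libraries with Xist under 10 TPM. The part of airway, vein and lymphoid tissue in each library was not tested.

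The collagen-following genes had the same direction inside each batch and each Xist class, which their selection largely set. All 87 had a difference above 0 inside batch 1 (median 0.94) and inside batch 2 (median 1.21), among the 7 libraries with Xist under 10 TPM (median 1.01) and among the 5 with more. Their median in the main comparison was 1.25. Among those 7 libraries the difference was 2.13 for Grem1, 1.31 for Lox and 1.08 for Fn1. Among the 5 with more, 1 against 4, it was 2.75, 2.37 and 2.27. Applied to those 7 libraries alone, 5 against 2, the same rule gave 90 and 18 genes, of which 45 and 4 were among the 87 and 15. Ranking inside batch 1 put both Ad-ATP12A lungs on the low side and both bleomycin lungs on the high side, and ranking inside batch 2 did the reverse, so neither inner ranking is balanced for treatment. With no overlap required inside both batches and a mean difference of at least 1, the inner rankings gave 105 and 64 genes, of which 49 and 4 were among the 87 and 15. In the 6 pairs of libraries that share treatment and batch, 49 of the 87 were higher in the higher-scoring library of all 6, 33 in 5 and 5 in 4; over all genes 5.35% were higher in all 6. The Ad-ATP12A pair of batch 1 differed in score by only 0.0257. Both Ad-GFP pairs and both bleomycin pairs set a high-collagen against a low-collagen library. The rule thus fixed their direction for all of the 87 and 15 genes. Only the Ad-ATP12A pairs were free, so the shares over all genes are not a like baseline. Among the 15 collagen-opposing genes all were below 0 in both batches and in both sets by Xist, and 6 were lower in all 6 pairs (4.20% of all genes). These repeats reuse the ranked libraries and are not independent evidence. The rule fixed the direction within each Xist class, since ranges that do not overlap stay apart in any subset. The inner rankings differ from the main one only in bleomycin b1r2 and bleomycin b2r2, so their direction was largely set as well.

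**Figure D3:**
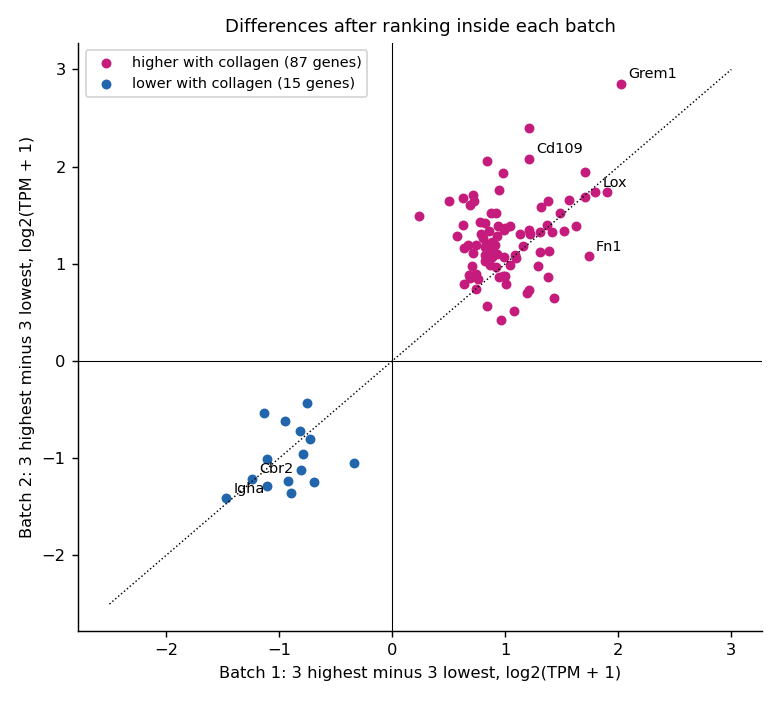
Each point is a collagen-following (87) or collagen-opposing (15) gene, at its high minus low difference in log2(TPM + 1) after ranking the 6 exposed libraries of batch 1 (x axis) and of batch 2 (y axis) separately; the dotted line marks equality. All points lie in the quadrants where both batches have the same sign, and Grem1 stands at 2.02 and 2.85. The genes were chosen from these same libraries, which largely set the shared sign.

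The labelled contrasts were tested with limma across 17003 genes, with batch in the fit and Benjamini-Hochberg adjustment. Between exposed and control lungs 3065 genes rose (18.0%) and 1988 fell (11.7%). Of the 87 collagen-following genes 65 rose and 0 fell by limma, with a median of 1.43; at an unadjusted p under 0.05 these were 77 and 0. Of the 15 collagen-opposing genes 4 fell and 0 rose by limma, or 6 and 0 unadjusted. Without control b1r1 or b1r2 the genes that fell in all numbered 1263 and 1141. Grem1 rose by 3.33 (SE 0.730, adjusted p = 0.00457), Lox by 2.38 (SE 0.534, adjusted p = 0.00516), Fn1 by 2.54 (SE 0.448, adjusted p = 0.00121) and Msr1 by 2.81 (SE 0.509, adjusted p = 0.00144). Some followers differed among injured lungs without passing against controls: F13a1 (0.10, adjusted p = 0.874), Emilin2 (0.25, adjusted p = 0.675), Bmper (0.53, adjusted p = 0.312) and Acta2. In Emilin2 the low-collagen libraries held 3.47 to 9.12 TPM and the controls 7.30 to 11.3 TPM, so controls overlapped the low-collagen lungs and lay below the lowest high-collagen value of 12.7 TPM. Between batches 3141 genes passed (18.5%), 88.6% of them higher in batch 2, or 55.7% of the calls under median-ratio scaling. None of the 87 or the 15 passed there, the smallest adjusted p being 0.0961 and 0.0820, although 16 and 3 had an unadjusted p under 0.05, as did 5886 genes in all. The choice of these genes set apart libraries of one treatment and batch, which widens the spread that the batch test uses. That none passed thus does not show them to be free of batch differences. Without single libraries the batch calls ran from 1475 (bleomycin b1r2) to 4176 (control b2r2) higher and from 96 (Ad-ATP12A b1r1) to 767 (control b2r2) lower. Among the 3 exposed groups 4 genes passed (0.0235%; 363 at an unadjusted p under 0.05), Atp12a, Kng1, Asgr2 and Igkv4-72, and none of them was collagen-following or collagen-opposing. Of those 87 and 15 genes 0 had an unadjusted p under 0.05 in this limma test. Each group was split evenly across the ranking, so genes that separate high from low libraries have similar group means and wide spread within groups. This outcome follows largely from the choice of genes and does not speak to treatment. The 4 became 2 without either bleomycin library of batch 1, control b2r1, either Ad-GFP library of batch 2 or Ad-ATP12A b2r1.

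Cell cycle genes rose with exposure, and their ranges overlapped between high- and low-collagen lungs. All 23 rose in exposed against control lungs, as Cdk1 did by 2.64 (SE 0.186, limma adjusted p = 5.71e-06), yet none was without overlap between high- and low-collagen lungs, and the median difference was 0.35. Cdk1 was at 26.2 to 54.0 TPM in the high-collagen and 28.4 to 51.8 TPM in the low-collagen libraries, against 3.12 to 7.55 TPM in controls. The p53 and senescence genes, 13 of 18 of which rose with exposure, had a median of 0.14. By contrast 18 of 25 matrix proteases rose with exposure and their median across the ranking was 0.86. Whether lists differ from each other in this respect was not tested.

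**Figure D4:**
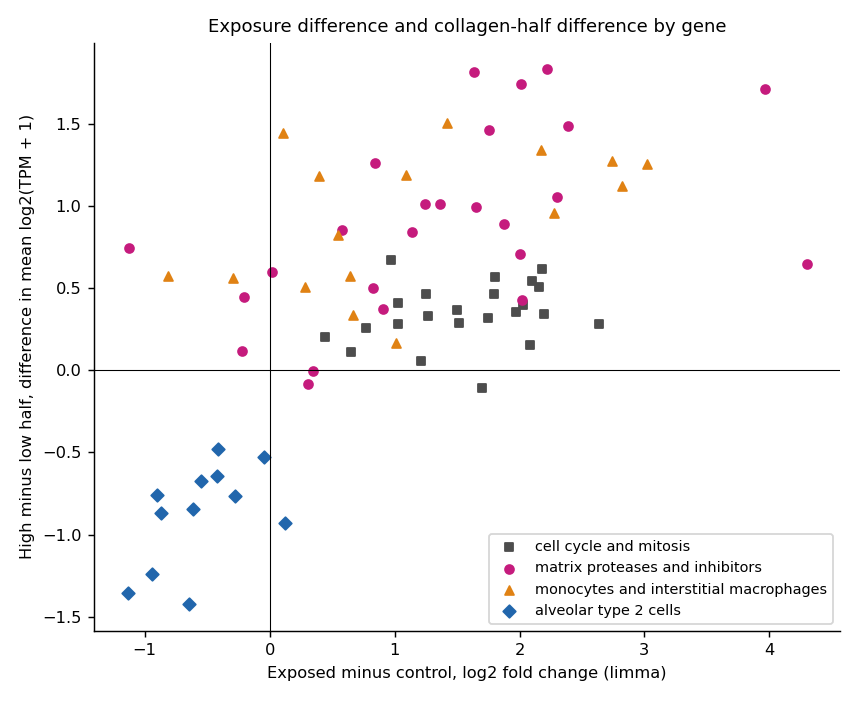
Each point is a gene of 1 of 4 lists, at its log2 fold change between exposed and control lungs in the limma fit (x axis) and its difference between high- and low-collagen libraries (y axis), both in log2(TPM + 1). Cell cycle genes lie to the right near a median of 0.35, proteases and monocyte or interstitial macrophage genes higher up, and the 12 alveolar type 2 genes below 0.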

How the data were processed

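Whole-lung total RNA was measured by RNA-seq in 16 libraries, 4 per group, with groups, batches and replicate numbers read from the labels. Per the labels' protocols, a Qiagen RNeasy plus kit was used and 0.6 ug of RNA entered each library. Reads were handled with STAR and RSEM on GRCm39 (mm39), per the submitters' processing notes; versions, annotation and strand setting are not given in the sources used here. The deposited values are log2 of TPM plus 1, made by the authors from TPM; turned back, each column summed to 999999.12 to 1000000.8 TPM. TPM shares a fixed total, so a few abundant genes lower all others, and depth is unknown.

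Of 53647 identifiers 52093 matched a GENCODE symbol. A gene was kept (17003) where 4 or more libraries reached 1 TPM. The 12 exposed libraries were ranked by the mean log2(TPM + 1) of 3 collagens, and 6 were compared with 6 by the difference of means with a pseudocount of 1, by overlap of ranges and by Spearman's rho, without a test. Labelled contrasts were tested with limma 3.58.1 in R 4.3.3 (trended variance, 4 groups plus batch, 16 libraries, two-sided, Benjamini-Hochberg, 0.05), where exposed is the mean of the 3 bleomycin groups. Scripts were tested on simulated data; Python 3.11.15 was used. Alternatives were the pseudocount, filter, scaling, ranking, Scgb1a1 and Xist libraries, replicate block and each library left out.

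The ranking, gene lists and named genes were chosen with earlier results of these data known. Named genes were the 12 largest differences each way and the 10 highest rho among genes without overlap, with the same sign in both batches and at least 5 TPM on average, passing over predicted models, pseudogenes and antibody segments, and the leading members of each list. Promoter windows came from RefSeq (GRCm38.p6), with no coordinates taken from the authors' build. The 2 list symbols Col21a1 and Fdcsp had no match.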

Additional observations from a re-analysis of the deposited data

Results flagged for a closer look

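Levels of the ranking genes and named genes were searched for 1 library far from the rest of its group, by Dixon's criterion at the 95% level, in 82 groups of samples; chance flags about 1 in 20 groups, and 3 met the criterion. Col3a1 in control b2r2 was the lowest of the 4 controls at 5.81 on the log2(TPM + 1) scale, with a gap of 0.856 of the group's range. Fn1 in Ad-GFP b1r2 was the lowest of the 6 high-collagen libraries at 9.55, with a gap of 0.696 of their range, and was still above every low-collagen library. Ttc29 in bleomycin b1r1 was the highest of the 6 high-collagen libraries at 3.73, with a gap of 0.659, and was still below every low-collagen library.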

How the results depend on the processing

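The main counts were 87 higher and 15 lower. Other thresholds and rankings moved the lower count to 43 (pseudocount 0.1), 64 (ranking inside each batch) and 28 (low-Scgb1a1 libraries left out). With replicate pairs of one treatment and batch they were 40 and 30, of which 13 and 1 were shared with the main ones, with 4 against 4 libraries 318 and 171, and with the 5 libraries of at least 10 TPM Xist (1 against 4, chosen after seeing the data, as was the set under 10 TPM) 778 and 819. Fewer libraries make separate ranges more frequent by construction; otherwise the cause was not tested. Median-ratio scaling gave 70 and 22, and shifted the median of all genes by -0.05. Leaving out 1 library at a time gave 74 to 175 higher and 7 to 58 lower.

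Of the 26 list medians of at least 0.4 in size, that of neutrophils reversed to -0.0164 in the pairs, that of club cells to 0.0440 under 10 TPM Xist and that of B and plasma cells to 0.25 with more; the cause was not tested. Below that size, the alveolar macrophage median of 0.34 was -0.35 in the pairs and -0.0919 under 10 TPM Xist. Among 33 named genes none changed sign under the alternatives run. Their choice, by ranges without overlap and the same sign in both batches, fixed this for left-out libraries, subsets of libraries and the inner rankings. It did not fully fix the sign under median-ratio scaling or in the replicate pairs.

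Leaving out 1 library gave 2254 to 3264 genes that rose and 1141 to 2439 that fell with exposure, 1475 to 4176 higher and 96 to 767 lower in batch 2, and 2 to 4 among the exposed groups. Batch calls were 1720 and 155 with no filter and 1203 and 957 with median-ratio scaling. The 4 calls among exposed groups became 2 with pseudocount 0.1, no filter or no batch term, and 1 with a mean of at least 5 TPM.

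Replicate numbers did not pair the samples: 12 correlations of same-numbered deviations ran from -0.158 to 0.212. The replicate block gave 2782 and 1724 for exposure, 2436 and 289 for batch and 4 among groups.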

Other observations

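Sugar-breaking and clock genes, not described above, also differed along the collagen ranking. Of 18 glycolysis and hypoxia genes 16 were above 0 (median difference 0.45), and the enzymes Eno1 (0.96), Gapdh (0.80), Pkm (0.76) and Pgam1 (0.64) were higher in every high-collagen library than in any low-collagen one. Gapdh was at 892 to 1571 TPM against 510 to 777 TPM (lowest to highest). Gapdh and Eno1 have near-identical copies in the genome, and Eno1b was itself among the 87 collagen-following genes, so how reads were split between copies is uncertain. Of 17 circadian genes Per3 (-0.86) and Tef (-0.62) were lower without overlap, Nfil3 (0.92) was higher without overlap, and Dbp (-1.32) and Arntl (0.74) lay on opposite sides of 0. The labels give no time of day for the samples, and its part in these values was not tested.

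Other myeloid genes outside the gene lists stood among the 87 collagen-following genes and were chosen here after their values were seen. They included the anaphylatoxin receptor C3ar1 (1.58), the complement receptor Vsig4 (1.49), the integrin subunit Itgam (1.25) and the Fc receptors Fcgr2b (1.20) and Fcgr3 (1.06). C3ar1, Itgam, Fcgr2b and Fcgr3 were higher in the higher-scoring library of 6 of 6 pairs and Vsig4 of 5. The metalloproteinase Pappa (1.33, rho 0.99 over 12 libraries), the imprinted RNA H19 (1.50) and the zinc transporter Slc39a14 (1.27) were also in this set.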
